A study of Mus musculus with 6 samples.

Results

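Atf4, Ddit4, Sesn2, Pck2 and Stc2 were measured in mouse CD4+ T cells given tunicamycin or vehicle. They were chosen by name, as the transcription factor ATF4 and 4 genes known as its targets in the integrated stress response. Earlier results of these data were known when they were chosen. All 5 had a row among the 13685 gene rows analysed, and all 5 were among the 3613 genes with enough counts to be tested. None of the 5 passed the test of tunicamycin against vehicle. Pck2 had the smallest p of the 5 and was the member whose 3 tunicamycin libraries all lay above the 3 vehicle libraries, at 21.4 ± 0.307 against 15.98 ± 2.20 TPM (SD, n = 3 each). Atf4, Ddit4 and Sesn2 were detected in every library, with overlapping groups, and Stc2 was near the limit of detection.

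Both groups came from WT mice, C57BL/6 by the series description, and were CD4+ T cells of the spleen and the mesenteric lymph node, taken as the fraction without CD25, which leaves out regulatory T cells. The cells were cultured for 4 h at 1000000 cells per well with tunicamycin at 0.15 µg/mL or, per the treatment protocol, with vehicle; the sample titles call the vehicle cells untreated. There were 3 libraries per group, numbered 1 to 3, which the labels call technical replicates. Each p-value and interval below reflects the spread among these libraries only. The number of mice, their age and whether their cells were pooled were not stated in the labels. The column names of all libraries end in the same lane suffix, while their sample indices run apart between the groups. Whether the groups also differ by batch was not tested.

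The counts of the rows analysed summed to between 7412151 and 11211270 per library, and each vehicle total (at most 9495725) was below each tunicamycin total (at least 10584276). The deposited TPM (a level scaled to transcript length and to the library) of these rows summed to between 319120 and 332870, which is a part of each library, and their totals are not library depths. The T cell label was checked on 12 markers, of which 7 had a row. Their summed TPM was 3615 to 3939 in vehicle and 3721 to 3978 in tunicamycin libraries. Cd3e, a subunit of the T cell receptor complex, was at 608 ± 28.4 and 569 ± 22.6 TPM (SD, n = 3 each). Cd40lg, the ligand of CD40 on helper T cells, was at 48.4 ± 3.31 and 50.4 ± 6.68 TPM, and Cd4 itself was not analysed here. Cd8b1 was at 9.47 to 11.9 TPM, and 2 of 5 B cell markers with a row summed to 0.661 to 1.14 TPM. Il2ra, which encodes CD25, was at 6.87 to 8.41 TPM in vehicle and 7.74 to 14.1 TPM in tunicamycin. Stromal markers were not analysed here.

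The integrated stress response begins when kinases that sense misfolded protein, amino acid shortage, double-stranded RNA or haem shortage phosphorylate the translation factor eIF2. General translation then falls, while the messenger RNA of Atf4 is translated more, so ATF4 protein can rise without more Atf4 RNA. ATF4 in turn activates genes of amino acid supply, redox balance and restraint of the growth kinase mTORC1. Tunicamycin blocks the start of N-glycosylation in the endoplasmic reticulum and, through misfolded glycoproteins, engages the kinase PERK and with it this response. RNA libraries measure the transcript only, and neither eIF2 phosphorylation nor ATF4 protein was measured here.

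The promoter of Pck2 is shown because it was the member promoter that held the core of the C/EBP-ATF response element, the composite site to which ATF4 binds with C/EBP partners. The 250 bases before the gene start were read from RefSeq on build GRCm38.p6 at chr14:55540016-55540265, plus strand, with each TGATG on either strand in capitals.
Pck2: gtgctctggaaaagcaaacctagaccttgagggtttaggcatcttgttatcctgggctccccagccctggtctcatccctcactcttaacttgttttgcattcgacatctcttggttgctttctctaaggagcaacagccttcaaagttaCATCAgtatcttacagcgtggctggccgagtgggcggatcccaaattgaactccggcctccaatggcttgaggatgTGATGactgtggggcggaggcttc
The first match, CATCA, reads TGATG on the other strand and lies 100 to 96 bases before the start. It is part of GTTACATCA, 104 to 96 bases before the start, which fits the element TGATGNAAN on the other strand. The second match lies 24 to 20 bases before the start and fits only the core.

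RefSeq promoters were found for 5 of 5 members, and the same 250-base windows of 32851 promoters served as the background, with both strands searched. TGATGNAAN was in 3.44% of all promoters and in 1 of the 5 members, Pck2. Its core TGATG, which every TGATGNAAN match contains, was in 34.5% of all promoters and again in Pck2 alone among the 5. The fuller form TGATGCAAT (0.167% of promoters), the cyclic AMP response element TGACGTCA (1.55%) and its part TGACGT (6.47%) matched none of the 5. CCACG, a part of the endoplasmic reticulum stress element, matched all 5 members and 28.3% of all promoters. These matches describe letters in a window and are not binding data.

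ATF4 is the basic leucine zipper factor at the centre of the response. On GRCm38, Atf4 (ENSMUSG00000042406) lies on chromosome 15 from 80255184 to 80257541, plus strand, with 3 annotated transcripts of up to 4 exons. Its estimated counts were 5973, 6125 and 8543 in vehicle libraries 1 to 3 and 8472, 9255 and 9553 in tunicamycin libraries 1 to 3. As deposited TPM these were 131, 132 and 145 in vehicle and 133, 139 and 145 in tunicamycin, so the groups covered almost the same range. As CPM, counts scaled to the library total with composition factors, Atf4 was at 803, 817 and 931 in vehicle and 795, 810.4 and 865 in tunicamycin. The larger tunicamycin counts went with the larger totals of those libraries and did not remain after scaling. The log2 fold change was -0.05 (SE 0.07) with a 95% interval from -0.19 to 0.10 (edgeR adjusted p = 0.962). Its sign turned in 3 of 19 alternatives, with every value between -0.09 and 0.03.

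Pck2, the mitochondrial phosphoenolpyruvate carboxykinase, turns oxaloacetate into phosphoenolpyruvate. Pck2 (ENSMUSG00000040618) lies on chromosome 14 from 55540266 to 55551242, plus strand, with 13 annotated transcripts, 6 of them protein coding, of up to 11 exons. The estimated counts were 997, 1267 and 1272 in vehicle and 1995, 2252 and 2051 in tunicamycin. In TPM, Pck2 was at 13.5, 17.7 and 16.8 in vehicle and at 21.7, 21.1 and 21.4 in tunicamycin. Every tunicamycin library was above every vehicle library, and the tunicamycin libraries lay close together while vehicle library 1 was lowest. The coefficient of variation was 13.8% in vehicle and 1.44% in tunicamycin. In CPM the order of the groups was the same, with 134, 169 and 139 in vehicle and 187, 197 and 186 in tunicamycin.

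The fitted log2 fold change of Pck2 was 0.37 (SE 0.09) with a 95% interval from 0.16 to 0.57, a fold of 1.29 (1.12 to 1.49). It did not pass the test over all genes (edgeR p = 0.00208, adjusted p = 0.36), and the exact two-sided permutation test on its log2 CPM gave p = 0.1, the smallest that 3 against 3 libraries can give. Without the filter on low counts, with 6753 genes tested, the value was again 0.37 and passed (edgeR adjusted p = 0.0463). Of 18 alternatives with an adjusted p, 2 took Pck2 past the threshold, this fit and a fit with the library number as a term, whose values are given with the dependence on the processing. Under the alternatives the value lay between 0.31 and 0.48, above 0 in each, and leaving out vehicle library 2 gave the highest. By p, Pck2 ranked 20 of the 3613 genes tested, and 10 genes had both a larger rise and a smaller p. Among the 2193 genes whose mean log2 CPM was 4 or more, 47 had a larger fitted rise and 7 had both. Summed TPM of NK cell markers (5 of 8 with a row, the 8 including granzymes and perforin) was 10.3 to 11.7 in vehicle and 11.9 to 18.5 in tunicamycin. Prf1, perforin, was the largest part of this sum, at 7.32 ± 0.927 and 7.71 ± 0.442 TPM (SD, n = 3 each). Ncr1, a receptor that defines NK cells, was at 0 to 0.183 TPM in vehicle and 0.0976 to 0.61 TPM in tunicamycin. Among these markers only Klre1 had separate groups in TPM. The part of these markers in the Pck2 values was not tested.

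Ddit4 encodes REDD1, a stress-induced restraint on mTORC1 that glucocorticoids, hypoxia and p53 can also induce. Ddit4 (ENSMUSG00000020108) lies on chromosome 10 from 59949669 to 59951834, minus strand, with 1 transcript of 3 exons. Its estimated counts were 886, 1057 and 1302 in vehicle and 1436, 1605 and 1375 in tunicamycin. In TPM it was at 19.4, 22.5 and 21.8 in vehicle and 22.4, 23.9 and 20.7 in tunicamycin. The lowest library was in vehicle and the highest in tunicamycin, and the groups overlapped between them. The means were 21.3 ± 1.62 and 22.3 ± 1.58 TPM (SD, n = 3 each). The log2 fold change was -0.01 (SE 0.09) with an interval from -0.21 to 0.20 (edgeR adjusted p = 0.992), and its sign turned in 8 of 18 alternatives.

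Sesn2 encodes sestrin 2, which binds leucine and holds back mTORC1 through the GATOR complexes, and which p53 also induces. Sesn2 (ENSMUSG00000028893) lies on chromosome 4 from 132492032 to 132510501, minus strand, with 1 transcript of 10 exons. The estimated counts were 518, 588 and 678 in vehicle and 715, 933 and 837 in tunicamycin. In TPM it was at 4.57, 5.06 and 4.65 in vehicle and 4.63, 5.79 and 5.26 in tunicamycin. The highest levels in TPM were those of tunicamycin libraries 2 and 3, and tunicamycin library 1 lay within the vehicle range. In CPM the means were 74.0 ± 4.39 and 74.9 ± 7.32 (SD, n = 3 each). The log2 fold change was 0.02 (SE 0.11) with an interval from -0.23 to 0.26 (edgeR adjusted p = 0.989), and its sign turned in 2 of 18 alternatives.

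Stc2 encodes stanniocalcin 2, a secreted glycoprotein. Stc2 (ENSMUSG00000020303) lies on chromosome 11 from 31357307 to 31370074, minus strand, with 5 transcripts, 1 of them protein coding. Its counts were 4, 45 and 6 in vehicle and 20, 19 and 4 in tunicamycin, or 0.0373, 0.409 and 0.0435 TPM and 0.134, 0.122 and 0.0259 TPM. Vehicle library 2 alone held more counts than any other library, and the highest level was 15.8 times the lowest. The log2 fold change was -0.87 (SE 0.99) with an interval from -3.04 to 1.30 (edgeR adjusted p = 0.948). The interval held falls of several-fold and rises of up to 2.47-fold, so the direction was not resolved at this depth. Without vehicle library 2 the value was 1.11 (edgeR adjusted p = 0.831). The summed TPM of 3 plasma cell markers also differed by library, at 196, 428 and 59.6 in vehicle and 207, 453 and 53.05 in tunicamycin, and was highest in library 2 of each group. Their part in the Stc2 values was not tested.

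**Figure D1:**
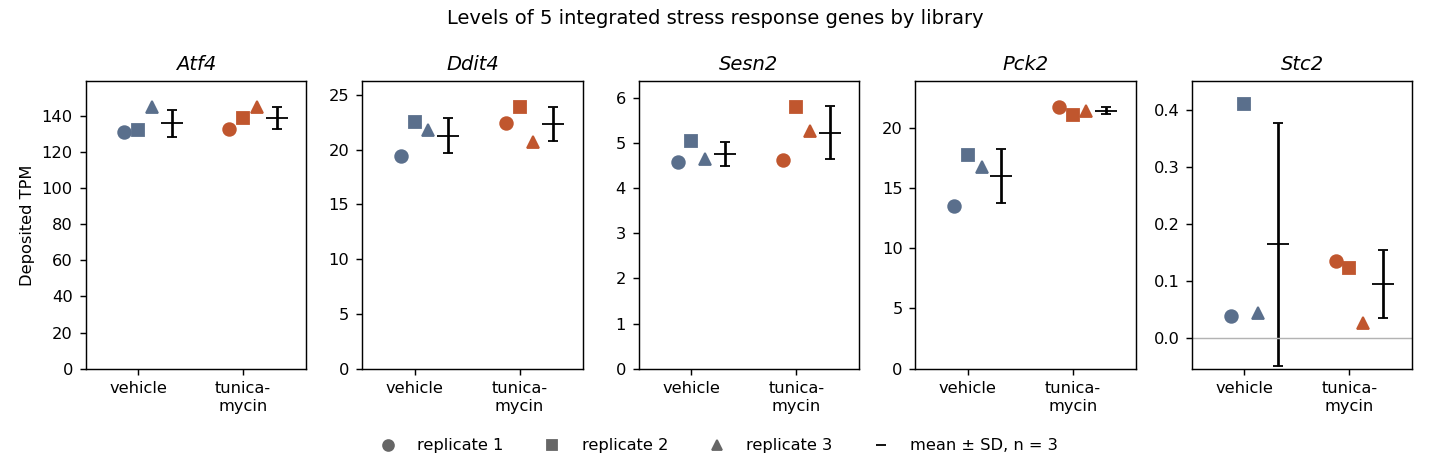
Deposited TPM (y axis, linear, a scale of its own per gene) of the 5 genes in each library, by group (x axis), with the library number as the symbol and the mean ± SD of 3 libraries as the bar. The groups overlap for Atf4, Ddit4, Sesn2 and Stc2, while the 3 tunicamycin libraries of Pck2 (21.1 to 21.7 TPM) lie above its vehicle libraries (13.5 to 17.7 TPM).

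In RNA of bulk cells, fewer cells of a type and less RNA per cell cannot be told apart, which holds for each level here. Over all 6 libraries the mean level per length ran from Atf4 (137 TPM) through Ddit4 (21.8 TPM), Pck2 (18.7 TPM) and Sesn2 (4.99 TPM) to Stc2 (0.129 TPM). Each step separated all libraries of the neighbours except that from Ddit4 to Pck2, where the lowest Ddit4 library (19.4 TPM) was below the highest Pck2 library (21.7 TPM). In vehicle all 3 Ddit4 levels were above all 3 Pck2 levels, and in tunicamycin the levels of these genes overlapped. Atf4 was 6.30 times the level of Ddit4, and Pck2 was 3.74 times that of Sesn2. Of the genes tested, 95.05% had a lower mean TPM than Atf4, 66.7% a lower one than Pck2 and 43.9% a lower one than Sesn2.

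Differences between libraries of the same number were taken in log2 CPM and log2 TPM, tunicamycin minus vehicle. For Pck2 they were 0.48, 0.22 and 0.42 in log2 CPM and 0.69, 0.25 and 0.35 in log2 TPM, above 0 in each number and smallest in number 2. The TPM ratios of Pck2 were 1.61, 1.19 and 1.28. For Atf4 the log2 TPM differences were 0.02, 0.08 and 0.00, and the log2 CPM differences were -0.01, -0.01 and -0.11, so the scale decided the sign. For Ddit4 the log2 CPM differences were 0.18, 0.00 and -0.19, with no shared sign. For Sesn2 they were -0.05, 0.06 and 0.04 in log2 CPM and 0.02, 0.20 and 0.18 in log2 TPM. For Stc2 they were 1.48, -1.73 and -0.59 in log2 CPM, the widest spread of the 5.

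**Figure D2:**
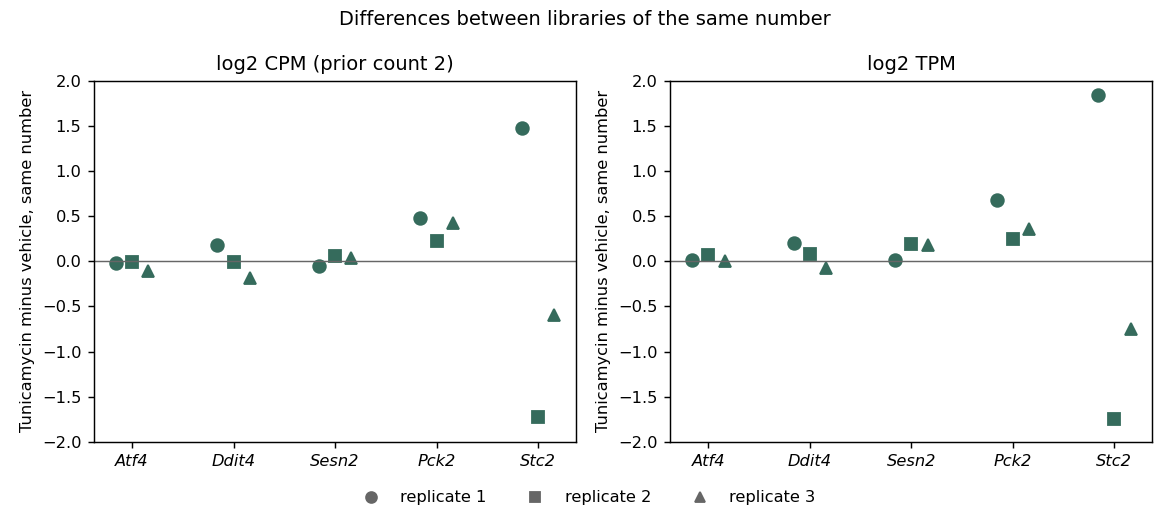
Difference between the tunicamycin and the vehicle library of the same number (y axis, log2) for each gene (x axis), in CPM on the left and in TPM on the right, with the number as the symbol. The 3 points of Pck2 are above 0 in both panels (0.22 to 0.48 in CPM), those of Atf4, Ddit4 and Sesn2 lie within 0.21 of 0, and those of Stc2 spread to both sides.

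The deposited counts and TPM together show the length assigned to a gene in each library. The ratio of count to TPM, on a log2 scale and centred per library and per gene, had a range over the 6 libraries of 0.05 log2 units in Atf4, 0.04 in Ddit4, 0.10 in Sesn2 and 0.06 in Stc2. In these 4 genes it was higher in every vehicle library than in any tunicamycin library. The share of all genes with such a separation was not computed, so it is not shown to be particular to these genes. In Atf4, Ddit4 and Sesn2 each log2 TPM difference between same-numbered libraries was also above the log2 CPM difference. In Pck2 the range was 0.36, wider than the median gene (0.12), and 16.1% of 2193 genes had a wider one. It did not separate the groups in Pck2, at -0.20 to 0.16 in vehicle and -0.06 to 0.09 in tunicamycin. Counts of Pck2 were whole numbers, within 0.01, in 1 of 6 libraries, in Atf4 in 2, in Ddit4 and Sesn2 in 5 each and in Stc2 in 6. With offsets for this ratio, the Pck2 value was 0.36 (edgeR adjusted p = 0.53).

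From gene start to end, introns included, other annotated genes overlap 2 of the members on GRCm38. Gm12981 shares 6089 bases with Sesn2 on the same strand, and Gm10876 shares 2134 bases with Pck2 on the opposite strand. Neither was analysed here, and the overlap of their exons was not computed. Whether counting used strand is not given in the sources used here, so reads of Pck2 and of Gm10876 in any shared exon bases might not be told apart. Any shared reads of Sesn2 and of Gm12981 could not be separated by strand in any case.

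Over all genes tested, 3 of 3613 passed the test in either direction (edgeR adjusted p below 0.05), 0.083%, and 0 of the 5 members did. At an unadjusted edgeR p below 0.05 there was 1 member, Pck2, against 6.42% of all genes. Among the members, DESeq2 without its filter on low means called 0 of 5, and limma on log2 TPM called 0 of 5. With its default filter, DESeq2 gave an adjusted p for Atf4 and none for the other members (Pck2 unadjusted p = 0.000871). In the fit without the filter on low counts, 10 of 6753 genes passed as higher in tunicamycin, 0.148%, and 1 of them was Pck2.

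All 3 tunicamycin CPM values lay above all 3 vehicle values in 6.62% of the genes tested and in 1 of the 5 members, Pck2. TPM was higher in tunicamycin in all 3 library numbers in 23.6% of genes tested and in 3 of the members, Atf4, Sesn2 and Pck2, although for Atf4 and Sesn2 the smallest of the 3 differences was 0.00 and 0.02 log2 units. The intervals also limit how far each level could have risen, given only the spread among these technical replicates. The upper 95% bound was below a 1.5-fold rise in 90.9% of the 2193 genes whose mean log2 CPM was 4 or more, and in Atf4 (1.07), Ddit4 (1.15), Sesn2 (1.20) and Pck2 (1.49). For Stc2 the bound was 2.47, at a mean of 0.53 log2 CPM.

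**Figure D3:**
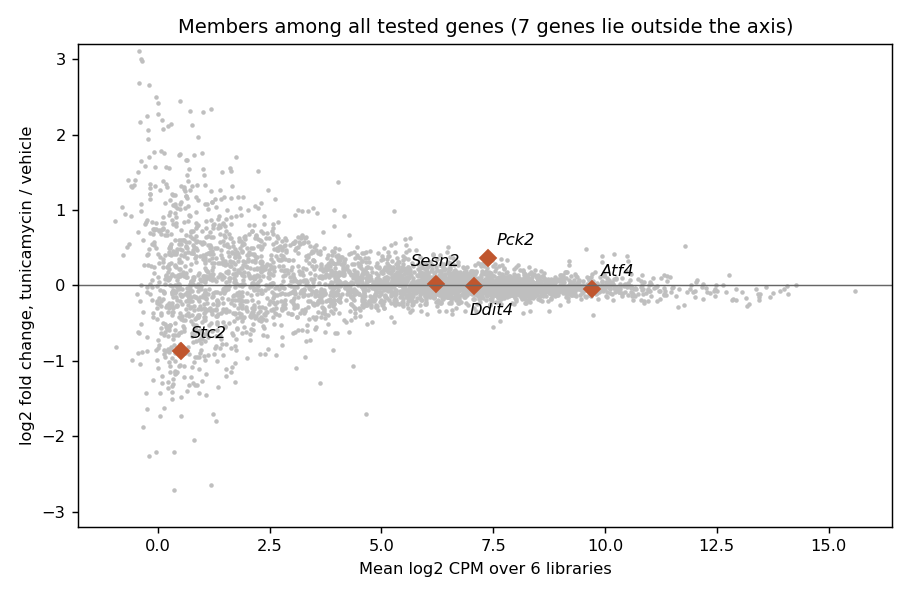
Fitted log2 fold change of tunicamycin against vehicle (y axis) by mean log2 CPM over 6 libraries (x axis) for the genes tested (grey points, 7 outside the axis), with the 5 genes as diamonds. Pck2 (0.37) is at the upper edge of genes of its level, Atf4, Ddit4 and Sesn2 lie within 0.05 of 0, and Stc2 (-0.87) is among the scattered genes of low count.

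**Figure D4:**
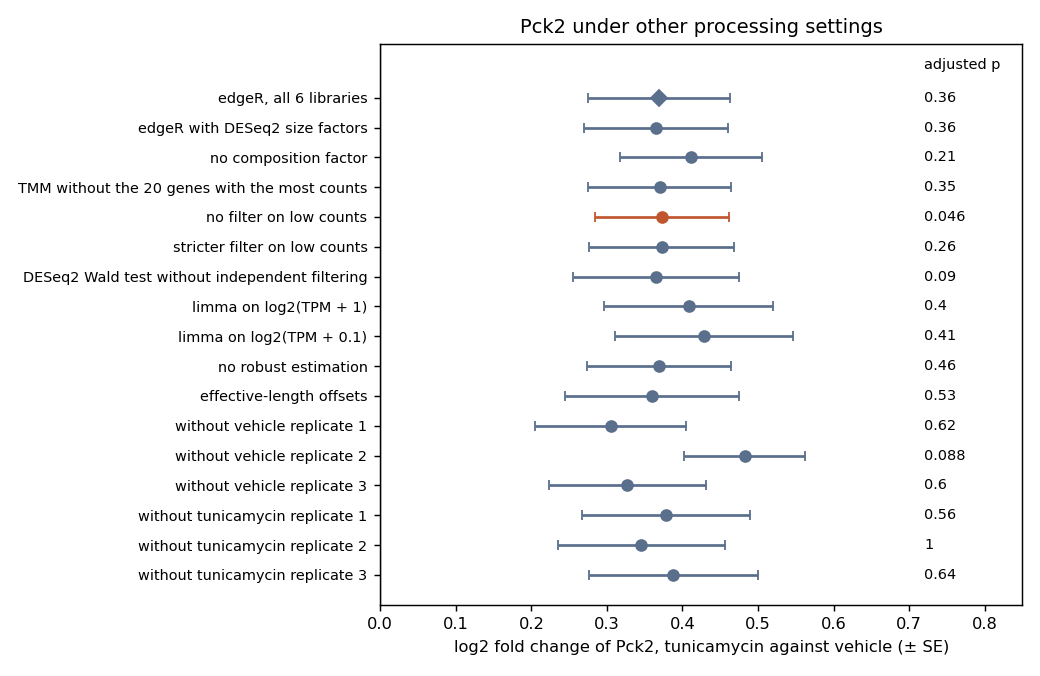
Log2 fold change of Pck2 (x axis, point ± SE) under the settings without the library number as a term (y axis), with the adjusted p at the right. All values are above 0, from 0.31 to 0.48, and the fit without a filter on low counts (orange) is the only one drawn with an adjusted p below 0.05.

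The other genes of the response were read from 14 lists, of which 66 different genes had a row and 57 were tested. The call rule was passed by 1 of these 57, Ccng1, and 7 had an unadjusted edgeR p below 0.05, beside 0.083% and 6.42% of all genes. The median log2 fold change of all genes tested was 0.00.

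Upstream of ATF4, 4 of 20 eIF2 kinases and regulators had a row and 0 passed, with a median log2 fold change of 0.09. Eif2ak2 encodes PKR, the eIF2 kinase that senses double-stranded RNA, and had a log2 fold change of 0.26 with an interval from -0.05 to 0.57. Impact, an inhibitor of the amino acid sensing kinase GCN2, was at 0.16 (-0.02 to 0.34). Ppp1r15b, the constitutive subunit that directs eIF2 dephosphorylation, was at 49.2 ± 1.499 and 50.6 ± 1.64 TPM (SD, n = 3 each), with a fitted log2 fold change of -0.03 (-0.14 to 0.09). Dnajc3, a chaperone that inhibits these kinases, was at 0.01. The kinase genes of PERK, GCN2 and HRI were not analysed here.

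Among transcription factors of the response, 4 of 15 were tested, Atf4 included, and 0 passed (median -0.08). Cebpb, a partner of ATF4 on the composite site, was at 3.44 ± 0.573 and 5.27 ± 1.495 TPM (SD, n = 3 each), with a fitted log2 fold change of 0.24 (-0.29 to 0.78). Nfe2l2, the antioxidant factor NRF2, was at -0.13 (-0.26 to 0.01), and Jun was at -0.11. Atf3, Atf5, Ddit3 and Trib3 were not analysed here.

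Of 27 stress targets of ATF4, 12 had a row, 8 were tested and 0 passed, with a median of -0.01 and 3 of 8 values above 0. The list holds Ddit4, Sesn2, Pck2 and Stc2, and Pck2 was its only gene with an unadjusted p below 0.05. Eif4ebp1, the translation repressor 4E-BP1, was at 10.6 ± 1.02 and 9.22 ± 0.583 TPM (SD, n = 3 each), with a fitted log2 fold change of -0.18 (-0.51 to 0.15). Tnfrsf10b, a death receptor, was at 0.00, Gadd45a at 0.03 and Hmox1, haem oxygenase, at -0.21 (-0.73 to 0.30).

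Amino acid supply is the other main output of ATF4. Of 22 genes of amino acid synthesis, 5 were tested and 0 passed, with a median of -0.11. Mthfd2, a mitochondrial folate enzyme, was at 22.1 ± 2.78 and 26.0 ± 3.86 TPM (SD, n = 3 each), with a fitted log2 fold change of 0.19 (-0.06 to 0.43). Shmt2, which makes glycine in mitochondria, was at -0.11, and Got2, the mitochondrial aspartate aminotransferase, at -0.15 (-0.27 to -0.02; edgeR adjusted p = 0.648). Among 17 amino acid transporters, 3 were tested and 0 passed, with a median of 0.09. Slc38a9, the lysosomal arginine sensor, stood at 0.30 (SE 0.08, 0.12 to 0.48; edgeR adjusted p = 0.401). Its CPM groups did not overlap and its TPM groups did, at 14.3 ± 3.15 and 15.6 ± 1.71 TPM (SD, n = 3 each). Slc38a2, a neutral amino acid carrier, was at 98.6 ± 4.63 and 106 ± 8.56 TPM. The 3 tested cytosolic tRNA synthetases, Hars, Rars and Tars, were at -0.07, -0.01 and 0.04, and 0 passed.

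Of 38 genes of mTORC1 restraint and amino acid sensing, the list around Ddit4 and Sesn2, 12 were tested and 0 passed, and 3 had values above 0 (median -0.05). Sesn3, another sestrin, was at 105 ± 3.86 and 103 ± 2.65 TPM (SD, n = 3 each), with a fitted log2 fold change of -0.08 (-0.20 to 0.05), and its level was above that of Sesn2 in every library. Castor1, an arginine sensor, was at -0.06. The Rag and Ragulator genes Rraga, Lamtor3, Lamtor4 and Lamtor5 were at -0.04, -0.08, 0.06 and 0.03. Of the families of the members, Ddit4l had 1 count in 1 library, and Sesn1, Pck1 and Stc1 were not analysed here.

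**Figure D5:**
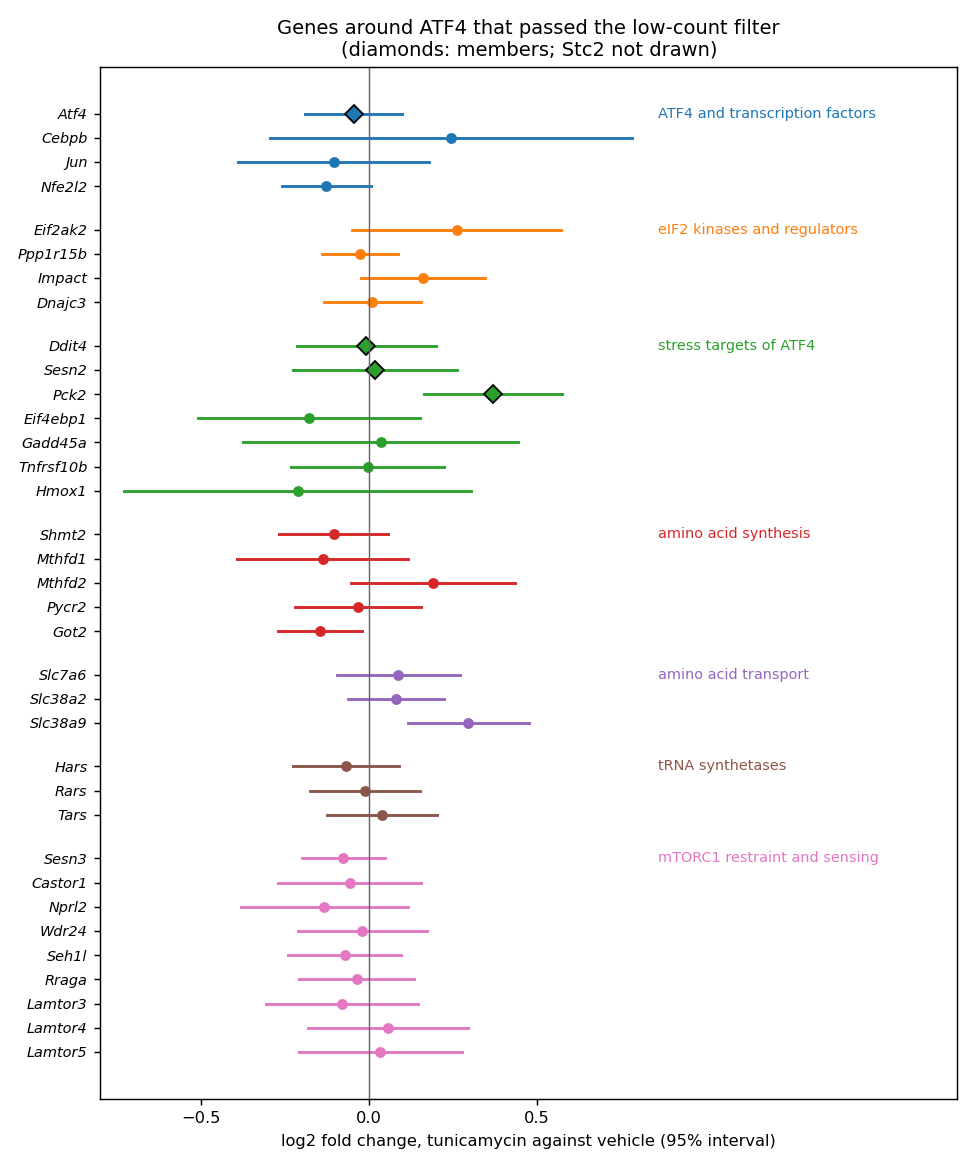
Log2 fold change of tunicamycin against vehicle (x axis) with its 95% interval for the tested genes around ATF4 (y axis), grouped by list, with members as diamonds and Stc2 left out for its wide interval. The intervals of Pck2 (0.16 to 0.57) and Slc38a9 (0.12 to 0.48) lie above 0 and that of Got2 (-0.27 to -0.02) below, and none of the genes drawn passed the adjusted threshold.

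The other arms of the unfolded protein response, which tunicamycin engages beside PERK, were read from 25 genes, of which 6 were tested and 0 passed (median -0.08). Calr, the chaperone calreticulin, was at 205 ± 1.28 and 199.8 ± 6.19 TPM (SD, n = 3 each), with a fitted log2 fold change of -0.14 (-0.25 to -0.03; edgeR adjusted p = 0.63). Dnajb9, a target of the IRE1 and XBP1 arm, was at 0.05 (-0.14 to 0.24), and Creld2, a target of ATF6, at -0.15 (-0.43 to 0.13).

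Ddit4 and Sesn2 also answer to other inputs, and these were read from their own lists. Of 7 tested glucocorticoid response genes 0 passed, with a median of 0.00. Zbtb16, a zinc finger factor on this list, stood at 1.37 on the log2 scale (SE 0.36, interval 0.56 to 2.17, edgeR adjusted p = 0.401), with overlapping CPM groups. It passed in DESeq2 without the filter on low means (adjusted p = 0.0335). Of 4 tested hypoxia genes 0 passed (median -0.04), with Bnip3, a mitophagy receptor, at 0.11. Of 5 tested p53 genes 1 passed, as lower in tunicamycin (median -0.31). Ccng1, which encodes cyclin G1, fell from 129 ± 6.39 to 101 ± 4.80 TPM (SD, n = 3 each) (log2 fold change -0.39, SE 0.06, edgeR adjusted p = 0.0255). The call was lost without composition factors, without robust estimation, with effective-length offsets, in limma and when vehicle library 1, 2 or 3 or tunicamycin library 2 or 3 was left out. Phlda3 was at -0.85 (edgeR adjusted p = 0.607), and Sesn2, on the same list, was at 0.02.

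Around Pck2, the list of gluconeogenesis and related steps had 3 tested genes and 0 passed, with Pgam1, phosphoglycerate mutase, at -0.14 and Got2 at -0.15 beside Pck2 at 0.37. Around Stc2, 3 genes of calcium and phosphate handling of the endoplasmic reticulum were tested and 0 passed. Stim1, the calcium sensor of the endoplasmic reticulum, was at 67.9 ± 3.41 and 67.5 ± 3.00 TPM (SD, n = 3 each).

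For each member the 3 genes with the most similar profile were taken among 2193 genes, by the root mean square difference of log2 CPM over 6 libraries after centring each gene. For Atf4 these were Srebf2 (0.0165), Ube2z (0.0176) and Isca1 (0.0284), against a median of 0.134 over all genes. For Ddit4 they were 2300009A05Rik (0.0402), mt-Atp6 (0.0402) and Crnkl1 (0.0408), and for Sesn2 they were Adss (0.0300), Zc3h12a (0.0380) and Unc119b (0.0385). For Pck2 they were Tmem126b (0.0553), Cfap20 (0.0582) and Vmn2r53 (0.0601), against a median of 0.251. Tmem126b, an assembly factor of respiratory complex I, was at 12.2, 13.9 and 11.8 TPM in vehicle and 15.2, 16.9 and 15.4 TPM in tunicamycin. Its groups were separate, but it was picked for its likeness to Pck2 in these same libraries, so this is not independent of that choice. Tmem126b did not pass the test (log2 fold change 0.28, edgeR adjusted p = 0.614). For Stc2 the nearest were Igkc (0.7501), Gm10263 (0.790) and Igha (0.814), and the median was 1.17. Igkc, an immunoglobulin light chain gene, was at 104, 245 and 38.2 TPM in vehicle and 105, 263 and 27.0 TPM in tunicamycin, high in library 2 of each group, while Stc2 was high in vehicle library 2 only.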

How the data were processed

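RNA was sequenced from 3 vehicle and 3 tunicamycin libraries. Per the labels' protocols, an mRNA kit took 200 ng of total RNA per library, and reads were pairs of 150 bp. Salmon, DESeq2, bcl2fastq and the build GRCm39 are named in the submitters' processing notes, with neither version nor role. The table deposited by the authors holds estimated counts, some of them fractional, with no scaling for depth. It also holds TPM deposited by the authors, and how transcripts were summed to genes is not given in the sources used here. Symbols were matched for 13627 of 13685 rows, and 6932 rows were at 0 in every library. There were 0 columns of other samples. Positions are on GRCm38 (GENCODE M21) and were not converted.

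The estimated counts were rounded. edgeR 4.0.16 (R 4.3.3) was run with filterByExpr, TMM scaling and robust quasi-likelihood F tests (two-sided), adjusted by Benjamini-Hochberg over all genes tested, with a threshold of 0.05. CPM used TMM-scaled sizes, and log2 CPM a prior count of 2. The fit was tested on simulated data. Members and lists were chosen with earlier results of these data known. The text names all members, their families, and from each list every gene that passed, otherwise up to 4 with the smallest p and 2 with the highest mean; Cd3e and other marker genes serve the label check. Alternatives were other scalings, filters, DESeq2 1.42.0, limma 3.58.1 on log2(TPM + 1) and log2(TPM + 0.1), effective-length offsets, a replicate block and leaving out each library. DESeq2 without independent filtering was added after seeing the data. No counting intervals are given, and counting error was not compared with the spread between libraries.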

Additional observations from a re-analysis of the deposited data

How the results depend on the processing

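Of 19 alternatives, 18 planned, none gave Pck2 a value below 0. It passed without the filter on low counts (0.37, edgeR adjusted p = 0.0463), and leaving out each replicate gave 0.31 to 0.48, with none past the threshold. Atf4 turned sign in limma on log2(TPM + 1) and log2(TPM + 0.1) (0.031 and 0.031) and ranged from -0.087 to 0.024 with each replicate left out. Ddit4 turned sign without composition factors (0.036), in limma (0.069 and 0.072), with effective-length offsets (0.010) and with a replicate block with effective-length offsets (0.012), and ranged from -0.087 to 0.042 with each replicate left out. Leaving out replicates gave -0.046 to 0.089 for Sesn2 and -1.34 to 1.11 for Stc2. The cause of these turns was not tested. Stc2 could not be fitted under the stricter filter.

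The count of genes that passed, 3 in all, was 16 without the filter on low counts, 20 in DESeq2, 23 in DESeq2 without independent filtering, 1 in limma on log2(TPM + 1), and 1 to 5 with a replicate left out (1 without vehicle replicate 2, 5 without vehicle replicate 3). Among the 57 list genes, 1 passed; the count was 0 without composition factors, in limma with either pseudocount, without robust estimation and with effective-length offsets, 2 without the filter on low counts and in DESeq2 without independent filtering, and 0 to 1 with a replicate left out. Default DESeq2 gave no adjusted p for 40 of the 57, and DESeq2 without independent filtering left 0 of the 57 without one. The cause of the changes in the counts of genes that passed was not tested. Other scalings moved the median of all genes by less than 0.1 log2 units. The median was 0.0007 in the main fit and 0.043 without composition factors. In limma it was 0.046 on log2(TPM + 1) and 0.064 on log2(TPM + 0.1).

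Same-numbered libraries deviated together with r = 0.037, 0.187 and 0.107 over 3613 genes, under the 0.1 needed in 1 pair, so by the rule set for all genes tested the numbers were not taken to pair the samples. Over the 2193 genes whose mean log2 CPM was 4 or more, all 3 pairs were over 0.1 (0.252, 0.130 and 0.229; other numbers at most 0.035), so this decision depends on the genes used. Each of the 6 libraries correlated best with its own number (other numbers: -0.133 to 0.028). The library names of both groups also carry the same numbers, and whether the same number means the same source was not stated in the labels. With a replicate block 36 genes passed, 14 of them higher, 3 list genes passed (Ccng1, Pck2 and Zbtb16), and Pck2 was at 0.38 (edgeR adjusted p = 0.0309). With the replicate block and effective-length offsets 6 genes passed, and Pck2 had an adjusted p of 0.32 in edgeR.

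Depth limits Stc2, with 4 to 45 counts per library, and the listed genes that were not tested.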

Other observations

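The low end of the lists of ATF4 targets and of transcription factors held genes with few counts in most libraries. Chac1, a glutathione-degrading enzyme, had 4, 0 and 0 counts in vehicle and 3, 54 and 7 in tunicamycin. Gdf15, a stress-induced cytokine, had 0 counts in each vehicle library and 7, 9 and 0 in tunicamycin. Cebpd, from the list of transcription factors, had 1, 3 and 4 counts in vehicle and 10, 17 and 2 in tunicamycin. These 3 genes lay below the filter and were chosen after their values were seen. Their groups overlapped, and tunicamycin library 2 was highest for each. Fgf21 and Cdsn, also on the target list and untested, had 0 counts in every library.

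In some genes of the lists the count and TPM scales placed the groups differently. Tars, the threonyl-tRNA synthetase, was at 30.8, 31.2 and 28.8 TPM in vehicle and 28.5, 28.3 and 27.0 TPM in tunicamycin, all lower, while its CPM was 224 ± 11.97 and 230.2 ± 14.7 (SD, n = 3 each). Eif2ak2 was at 4.19, 4.45 and 3.40 TPM in vehicle and 5.29, 6.74 and 6.10 TPM in tunicamycin, all higher, while its CPM groups overlapped at 48.1 ± 7.06 and 57.6 ± 5.81 (SD, n = 3 each). Zbtb16 was at 0.513, 0.664 and 0.472 TPM in vehicle and 0.711, 1.91 and 1.94 TPM in tunicamycin, with tunicamycin library 1 close to the vehicle range. Its CPM groups overlapped.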
